A study of Bos taurus with 33 samples.

Results

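MHC class II genes were followed through the endometrium of heifers given interferon or carrying an early pregnancy. They were taken as every probe set that the array annotation assigns to CD74, CIITA or a gene whose symbol starts with BOLA-D, the prefix of the cattle class II genes. This gave 20 of 24016 probe sets, standing for 12 of 9155 genes with 1 symbol: BOLA-DRA, BOLA-DRB3, BOLA-DQA1, BOLA-DQA2, BOLA-DQA5, BOLA-DQB, BOLA-DQB1, BOLA-DMA, BOLA-DMB, BOLA-DOA, BOLA-DYA and BOLA-DYB. For CD74 and CIITA the annotation lists 0 probe sets, so they are not analysed here. Of the 12 genes, 8 had 1 probe set and 4 had more. Affymetrix bovine genome arrays were used, with 1 array per animal and 33 animals, all Bavarian Simmental heifers whose cycles were synchronised with cloprostenol. In the biopsy experiment 3 animals received a lipid rod releasing human interferon alpha (IFNA) into the uterine horn on day 14, 3 received the rod alone (placebo) and 3 received phosphate-buffered saline (PBS). About 6 biopsies per animal were taken from the ipsilateral horn on day 16, after flushing with PBS. In the pregnancy experiment, intercaruncular endometrium was collected at slaughter from pregnant heifers, inseminated with sperm of 1 bull, and from cyclic heifers given sperm-free supernatant. There were 5 pregnant and 5 cyclic animals on day 12, 3 and 3 on day 15, and 4 and 4 on day 18.

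Class II molecules are pairs of an alpha and a beta chain that carry peptides from endocytosed proteins to the cell surface, where CD4+ T cells read them. Dendritic cells, macrophages and B cells express them constantly, and many other cells do so after interferon gamma acts through the transactivator CIITA. DR and DQ are the classical pairs that present peptide. DM exchanges the invariant-chain fragment for other peptides in the loading compartment, DO restrains DM, and DY is a pair found in ruminants. In cattle the DQ genes differ much between animals, and their number varies with the haplotype. During early pregnancy the ruminant conceptus secretes interferon tau, a type I interferon that the endometrium senses. In the RefSeq gene order of the cattle assembly ARS-UCD2.0 the class II genes lie in 2 blocks with 240 protein-coding genes between them. One block holds DYA, DYB, DMB, DMA and DOA, and the other holds DQA2, DQB, DQA5, DQB1, DRB3 and DRA.

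Values are log2 expression levels per probe set, which ran from 1.89 to 14.2 over the table. The sorted values fell into 4 sets of arrays (the biopsies and each slaughter day) whose medians were 6.64 (biopsies), 6.85 (day 12), 6.49 (day 15) and 7.25 (day 18). Each comparison of groups was therefore made within a set, and an order of levels across sets also reflects these shifts. The day is confounded with the sampled part of the horn, which was distal on day 12, medial on day 15 and caudal on day 18, so day and part cannot be told apart. As a sign of RNA integrity, GAPDH read 1.03 to 3.87 log2 higher at its 3′ end than at its 5′ end in the biopsies and -0.16 to 0.56 higher in the slaughter samples. Among the biopsies this excess was 1.66 to 2.98 with IFNA, 1.03 to 3.87 with placebo and 1.59 to 3.30 with PBS. Summed epithelial markers (10 genes) lay between 13.3 and 14.1 log2 and summed stromal markers (10 genes) between 15.0 and 16.0 over all animals. The interferon-stimulated genes ISG15 and MX2 show the strength of the stimulus. ISG15 was higher by 4.91 log2 with IFNA than with placebo, by 0.53 in pregnant than in cyclic animals on day 12, by 5.24 on day 15 and by 4.90 on day 18. For MX2 the same differences were 5.41, 0.42, 5.32 and 5.57 log2.

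The class II probe sets behaved in 3 ways. DRA, DMA, DMB, DOA and the DRB3 probe set Bt.5356.1.S1_s_at gave graded levels that were close among animals of a group. The DQ probe sets and the other DRB3 probe set differed widely between animals of the same group. DYA, DYB and a DQA2 probe set stayed near the low end of the scale in all animals. The graded genes are described first, the peptide editors DM and DO ahead of the presenting DR chains.

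**Figure D1:**
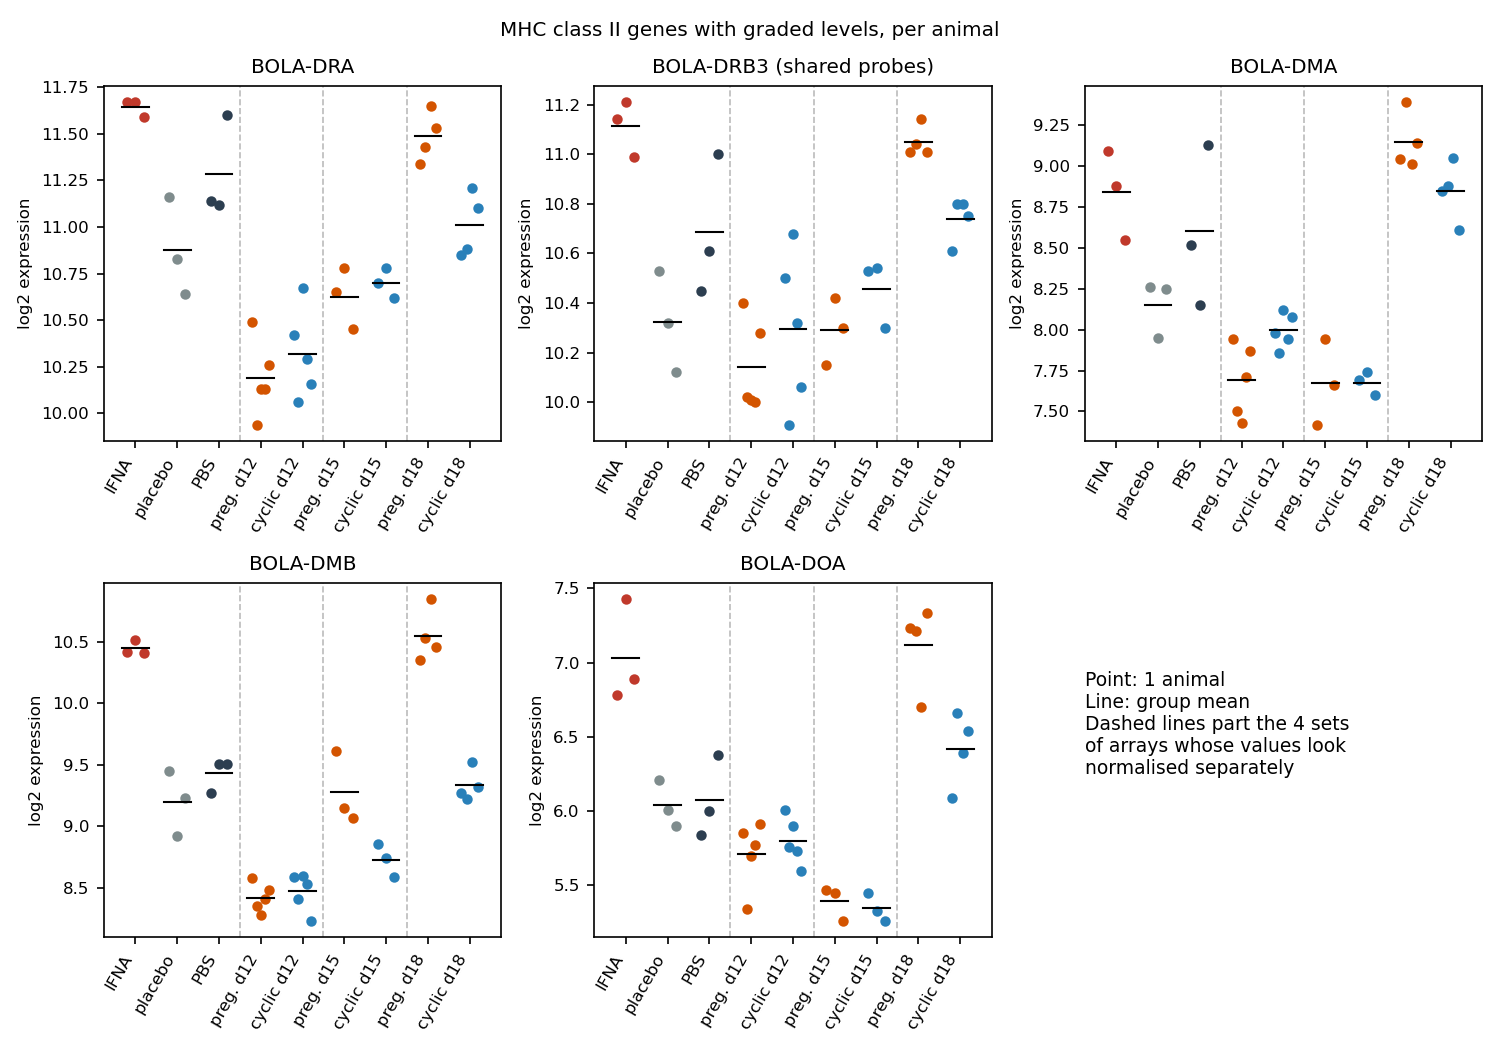
Log2 expression of BOLA-DRA, BOLA-DRB3 (Bt.5356.1.S1_s_at), BOLA-DMA, BOLA-DMB and BOLA-DOA on the y axis, with 1 point per animal, a black line at each group mean and the 9 groups along the x axis. BOLA-DMB lay at 10.41 to 10.51 with IFNA and at 10.35 to 10.85 in pregnant animals on day 18, above all animals of every other group.

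DMB, the beta chain of the peptide editor, was the only class II gene called with IFNA over placebo. It measured 10.42, 10.51 and 10.41 log2 in the IFNA animals, against 9.45, 8.92 and 9.23 with placebo and 9.27, 9.51 and 9.51 with PBS. The IFNA animals did not overlap with either control group. The difference from placebo was 1.25 ± 0.142 log2 (SE, 2.37-fold, n = 3 each, limma adjusted p = 0.00323). This made 1 of 20 class II probe sets past the adjusted threshold of 0.05, where 0.866% of all probe sets passed in either direction. The call held when each of the 6 animals was left out in turn, with differences of 1.11 to 1.37. In bulk tissue, more cells of a type and more RNA per cell cannot be told apart.

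The other graded genes were also higher in all IFNA animals than in all placebo animals, without passing the threshold. DOA, the alpha chain of the DM inhibitor, measured 6.78, 7.43 and 6.89 with IFNA, against 6.21, 6.01 and 5.90 with placebo and 5.84, 6.00 and 6.38 with PBS. Its difference from placebo was 0.99 ± 0.200 (adjusted p = 0.0725). DMA, the alpha chain of DM, measured 9.09, 8.88 and 8.55 with IFNA, against 8.26, 7.95 and 8.25 with placebo and 8.52, 8.15 and 9.13 with PBS. The third PBS animal therefore stood above every IFNA animal for DMA, and the difference from placebo was 0.69 ± 0.243 (adjusted p = 0.431).

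DRA, the invariant alpha chain of DR, measured 11.67, 11.67 and 11.59 with IFNA, against 11.16, 10.83 and 10.64 with placebo and 11.14, 11.12 and 11.60 with PBS. Its difference from placebo was 0.77 ± 0.168 (95% interval 0.386 to 1.15, adjusted p = 0.102). DRB3, the main functional DR beta chain of cattle, measured 11.14, 11.21 and 10.99 with IFNA, against 10.53, 10.32 and 10.12 with placebo and 10.45, 10.61 and 11.00 with PBS on its probe set Bt.5356.1.S1_s_at. Its difference from placebo was 0.79 ± 0.163 (adjusted p = 0.0800). Together 5 of the 20 class II probe sets lay higher in all IFNA than in all placebo animals, as did 5.38% of all probe sets. The median difference of the 20 was 0.26 log2, beside -0.02 for all probe sets tested.

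Against PBS, which shares the IFNA arrays with the comparison above, the DR and DMA differences were smaller. DMB was again the 1 class II probe set past the threshold, at 1.02 ± 0.142 log2 (2.02-fold, adjusted p = 0.0128), where 0.862% of all probe sets passed. That call ended without the second or the third IFNA animal and without the first or the second PBS animal (adjusted p up to 0.0736, differences of 0.94 to 1.06). DOA was higher by 0.96 ± 0.200 (adjusted p = 0.0883) and was the only other class II probe set without overlap, making 2 of 20 beside 6.09% of all probe sets. DRA was higher by 0.36 ± 0.168 (95% interval -0.0238 to 0.737, adjusted p = 0.586), DRB3 by 0.43 ± 0.163 (adjusted p = 0.421) and DMA by 0.24 ± 0.243 (adjusted p = 0.914). In these genes the third PBS animal had the highest value of its group. The median difference of the 20 probe sets was -0.105, beside -0.01 for all.

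The carrier alone gave no class II call. Between placebo and PBS, 0 of 20 class II probe sets and 0% of all probe sets passed in limma, while 1 class II probe set and 2.71% of all had an unadjusted p below 0.05. That probe set was DRA, at -0.41 ± 0.168 (adjusted p = 0.999). DMA gave -0.45 ± 0.243, DRB3 -0.36 ± 0.163, DMB -0.23 ± 0.142 and DOA -0.03 ± 0.200. The 5 graded probe sets thus had lower means with placebo than with PBS, with overlapping animals in each.

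On day 12 of pregnancy no class II gene passed the threshold. DMB measured 8.58, 8.35, 8.28, 8.41 and 8.48 in pregnant animals, against 8.59, 8.41, 8.60, 8.53 and 8.23 in cyclic animals. DRA measured 10.49, 9.94, 10.13, 10.13 and 10.26 in pregnant animals, against 10.42, 10.06, 10.67, 10.29 and 10.16 in cyclic animals. The groups overlapped almost fully in both genes, with differences of -0.05 ± 0.106 for DMB and -0.13 ± 0.111 for DRA. In limma 0 of 20 class II probe sets passed beside 0.00416% of all, and 1 of 20 beside 6.65% of all had an unadjusted p below 0.05. That one was DMA, at 7.94, 7.50, 7.43, 7.71 and 7.87 in pregnant animals, against 7.98, 7.86, 8.12, 7.94 and 8.08 in cyclic animals. Its difference was -0.31 ± 0.109 (adjusted p = 0.627). DOA spanned 5.34 to 5.91 in pregnant and 5.60 to 6.01 in cyclic animals, and DRB3 spanned 10.00 to 10.40 in pregnant and 9.91 to 10.68 in cyclic animals.

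On day 15 DMB was higher in pregnancy while DRA, DRB3, DMA and DOA were not past the threshold. DMB measured 9.61, 9.15 and 9.07 in pregnant animals, against 8.86, 8.74 and 8.59 in cyclic animals, without overlap. The difference was 0.55 ± 0.137 log2 (1.46-fold, n = 3 each, adjusted p = 0.0217). It was the only class II probe set past the threshold (1 of 20, beside 5.07% of all probe sets) and the only one higher without overlap, as were 9.91% of all. The call ended without the first pregnant animal (difference 0.38, adjusted p = 0.152), without the second cyclic animal (0.55, adjusted p = 0.0681) and without the third one (0.48, adjusted p = 0.0952). It also ended when only the day 15 arrays entered the fit (adjusted p = 0.134).

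The DR chains overlapped between the groups of that day. DRA measured 10.65, 10.78 and 10.45 in pregnant animals, against 10.70, 10.78 and 10.62 in cyclic animals, a difference of -0.07 ± 0.144 (95% interval -0.372 to 0.225). DRB3 measured 10.15, 10.42 and 10.30 in pregnant animals, against 10.53, 10.54 and 10.30 in cyclic animals, a difference of -0.17 ± 0.148. DMA measured 7.42, 7.94 and 7.66 in pregnant animals, against 7.69, 7.74 and 7.60 in cyclic animals. DOA had its lowest group means of the study on this day, with values of 5.47, 5.45 and 5.26 in pregnant animals, against 5.45, 5.33 and 5.26 in cyclic animals, a difference of 0.05 ± 0.161. On the same arrays ISG15 measured 13.43, 13.21 and 13.23 in pregnant animals, against 9.06, 7.33 and 7.76 in cyclic animals.

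By day 18 DMB, DOA and DRA were all higher in pregnant animals. DMB measured 10.35, 10.53, 10.85 and 10.46 in pregnant animals, against 9.27, 9.22, 9.52 and 9.32 in cyclic animals. The gap between the groups exceeded the range within either, and the difference was 1.22 ± 0.119 log2 (2.32-fold, n = 4 each, adjusted p = 1.50e-07). DOA measured 7.23, 7.21, 6.70 and 7.33 in pregnant animals, against 6.09, 6.66, 6.39 and 6.54 in cyclic animals. For DOA the third pregnant animal lay close to the second cyclic one, and the difference was 0.70 ± 0.139 (1.62-fold, adjusted p = 0.00111). DRA measured 11.34, 11.43, 11.65 and 11.53 in pregnant animals, against 10.85, 10.88, 11.21 and 11.10 in cyclic animals, again without overlap. Its difference was 0.48 ± 0.124 (1.39-fold, adjusted p = 0.00921). All 3 calls held when each of the 8 animals was left out in turn.

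DRB3 and DMA lay on the same side without passing. DRB3 measured 11.01, 11.04, 11.14 and 11.01 in pregnant animals, against 10.61, 10.80, 10.80 and 10.75 in cyclic animals. The groups did not overlap, and the difference was 0.31 ± 0.128 (adjusted p = 0.0966). It passed when only the day 18 arrays entered the fit (adjusted p = 0.0199). DMA measured 9.04, 9.39, 9.01 and 9.14 in pregnant animals, against 8.85, 8.88, 9.05 and 8.61 in cyclic animals, with overlap and a difference of 0.30 ± 0.122 (adjusted p = 0.0942). In all, 3 of 20 class II probe sets passed on day 18 beside 19% of all probe sets, 8.84% of all being higher and 10.2% lower. Without overlap, 4 of the 20 were higher, beside 9.24% of all. The median difference of the 20 was 0.32, beside -0.03 for all.

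**Figure D2:**
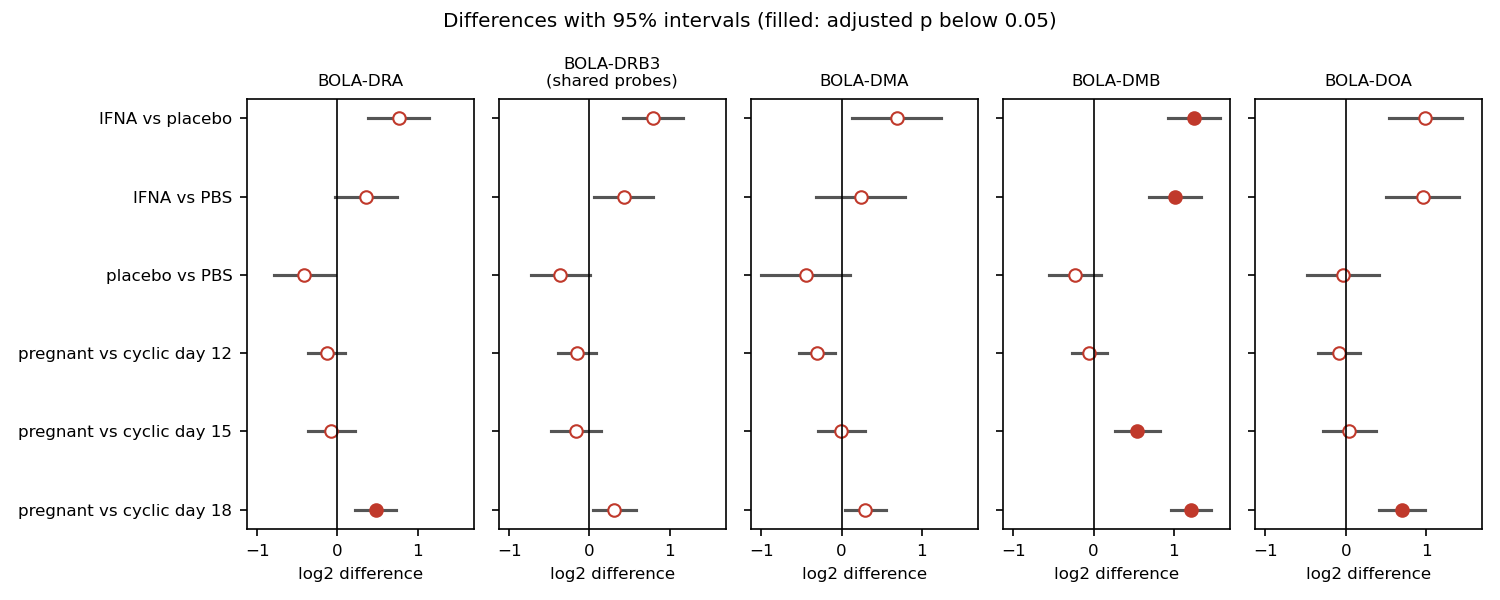
Log2 differences (points, x axis) with 95% intervals (lines) for the 5 graded genes in the 6 comparisons, filled where the limma adjusted p was below 0.05. BOLA-DMB is filled with IFNA against both controls and in pregnancy on days 15 and 18, whereas BOLA-DRA and BOLA-DOA are filled in pregnancy on day 18.

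The change of the pregnancy effect over time was tested as an interaction. From day 12 to day 18 the effect shifted upward for DMB by 1.27 ± 0.160 log2 (limma adjusted p = 1.29e-05) and for DOA by 0.78 ± 0.187 (adjusted p = 0.00931). The shift was 0.61 ± 0.167 for DRA (adjusted p = 0.0225) and 0.60 ± 0.164 for DMA (adjusted p = 0.0210). These were 4 of 20 probe sets, all upward, beside 10.2% of all probe sets in either direction and 5.42% upward. For DMA the effect changed sign, from -0.31 on day 12 to 0.30 on day 18, and was called on neither day. The DRA change was no longer past the threshold without the first or second cyclic or the third pregnant animal of day 18 (adjusted p up to 0.0531). The DMA change was lost without the fourth cyclic or the second pregnant animal of that day (adjusted p up to 0.0540). DRB3 gave 0.46 ± 0.172 (adjusted p = 0.0934), and passed at 0.56 (adjusted p = 0.0271) without the second cyclic animal of day 12.

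Neither of the steps between neighbouring days passed for any class II probe set. From day 12 to day 15 the DMB effect changed by 0.60 ± 0.174 (adjusted p = 0.0818), with 0 of 20 called in limma beside 1.99% of all and 1 of 20 beside 14.4% of all at an unadjusted p below 0.05. From day 15 to day 18 the change was 0.67 ± 0.182 for DMB (adjusted p = 0.153), 0.65 ± 0.212 for DOA (adjusted p = 0.275) and 0.55 ± 0.190 for DRA (adjusted p = 0.309). There 0 of 20 were called in limma beside 0.208% of all, and 4 of 20 beside 9.27% of all had an unadjusted p below 0.05. DMB passed in that step (0.84, adjusted p = 0.0477) without the first pregnant animal of day 15.

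The response to IFNA over placebo was then set against the response to pregnancy, each taken within its own experiment. The response over PBS, which for DRB3 was 0.43 log2 in place of 0.79, was not set against pregnancy. Against day 15 the IFNA response of DRB3 was larger by 0.96 ± 0.219 log2 (adjusted p = 0.0459), the 1 class II call of 20 beside 0.371% of all probe sets. This call held only without the third IFNA, the first placebo or the second placebo animal, and was lost in the other 9 of 12 fits that left an animal out (adjusted p up to 0.152). The same difference was 0.95 ± 0.250 for DOA (adjusted p = 0.0957), 0.84 ± 0.217 for DRA (adjusted p = 0.0848), 0.70 ± 0.198 for DMB (adjusted p = 0.110) and 0.69 ± 0.256 for DMA (adjusted p = 0.235). DOA passed without the first IFNA animal (adjusted p = 0.0453), and DRA without the first placebo animal (adjusted p = 0.0448). Against day 18 no difference passed in limma (0 of 20 beside 1.09% of all, and 4 of 20 beside 13.2% of all at an unadjusted p below 0.05). For DMB it was 0.03 ± 0.186, with a 95% interval of -0.349 to 0.412, and for DRA it was 0.29 ± 0.203.

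In the order of group means, DMB was highest in pregnant animals of day 18 (10.55 ± 0.21, SD, n = 4) and with IFNA (10.45 ± 0.06, n = 3), groups that overlapped with each other and with no other. PBS (9.43 ± 0.14), cyclic day 18 (9.33 ± 0.13), pregnant day 15 (9.28 ± 0.29) and placebo (9.20 ± 0.27) followed with overlap between neighbours. Cyclic day 15 (8.73 ± 0.14) lay below all placebo animals, and cyclic day 12 (8.47 ± 0.16) and pregnant day 12 (8.42 ± 0.12) came last. DOA kept the same leading pair, with 7.12 ± 0.28 in pregnant animals of day 18 and 7.03 ± 0.35 with IFNA, but its lowest groups were pregnant (5.39 ± 0.12) and cyclic (5.35 ± 0.10) animals of day 15. DRA ran from 11.64 ± 0.05 with IFNA to 10.19 ± 0.20 in pregnant animals of day 12, and every pair of neighbours in its order overlapped. DRB3 ran from 11.11 ± 0.11 with IFNA to 10.14 ± 0.19 in pregnant animals of day 12, and its only break was between pregnant and cyclic animals of day 18. DMA was highest in pregnant (9.15 ± 0.17) and cyclic (8.85 ± 0.18) animals of day 18, and all its neighbours overlapped. These orders cross the separately scaled array sets and carry no test.

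The DQ genes and the probe set Bt.28011.1.S1_at of DRB3 differed mainly between individual animals. The within-group SD was above 1 log2 in 11 of the 20 class II probe sets, and in 63 (0.262%) of all 24016. A further one, Bt.22867.1.S1_x_at of DQA1, stood at 0.999. Of the 10 most variable probe sets of the whole array 5 were class II, and 12 were among the 100 most variable. The most variable of all was Bt.4594.1.S1_at of DQB1, with a within-group SD of 3.52, whereas the median over all probe sets was 0.161. By contrast the within-group SD was 0.193 for DRA, 0.195 for DRB3 on Bt.5356.1.S1_s_at, 0.231 for DMA, 0.175 for DMB and 0.225 for DOA.

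**Figure D3:**
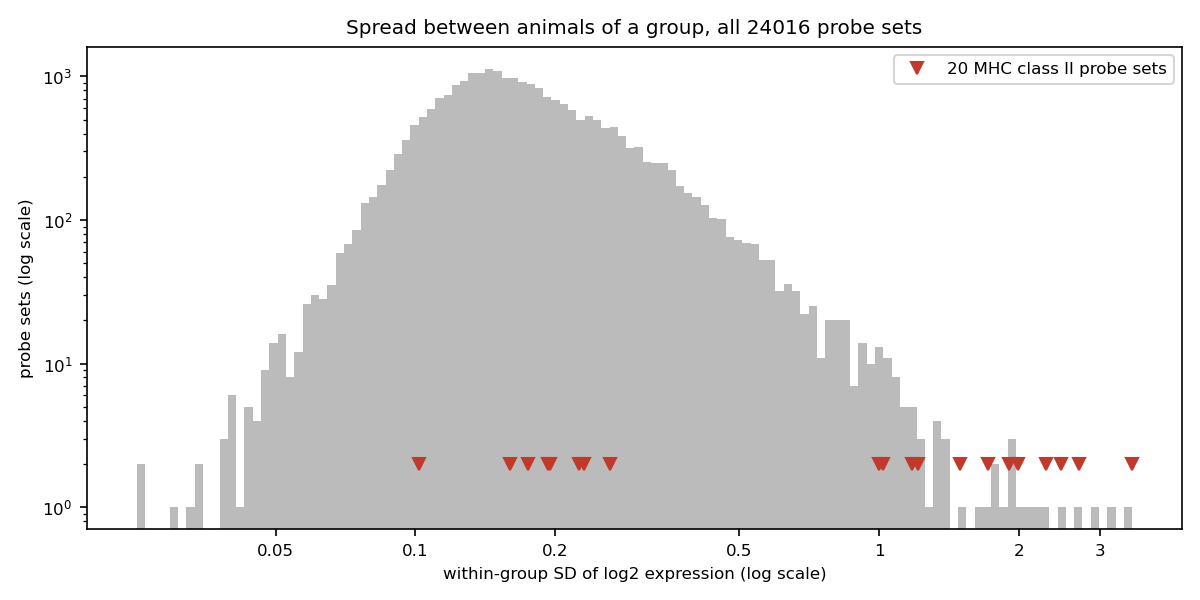
Histogram of the within-group SD of log2 expression (x axis, log scale) over all 24016 probe sets (grey, y axis on a log scale), with red triangles at the 20 MHC class II probe sets. The triangles form a lower cluster that includes DRA, DMA, DMB and DOA, and an upper cluster of 12 probe sets from 0.999 to 3.52.

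DQB1, a beta chain of the DQ pair, is represented by 5 probe sets that did not follow one another in all animals. The one with the highest mean, Bt.350.1.S1_s_at, was at 9.17 or above in 30 animals and at 5.10 or below in 3. The 3 low animals were the first IFNA animal (4.59), the first pregnant animal of day 12 (4.00) and the first cyclic animal of day 18 (5.10). Its difference between IFNA and placebo was -2.79 ± 1.27 log2 (95% interval -5.68 to 0.0956, limma adjusted p = 0.606). The first IFNA animal lowered the IFNA mean most. The others measured 10.72 and 9.17, against 10.56 to 11.16 with placebo and 10.09 to 11.32 with PBS.

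Bt.4594.1.S1_at of DQB1 divided the animals of every group. It measured 4.22, 4.42 and 10.61 with IFNA, against 10.10, 4.05 and 9.82 with placebo and 4.36, 11.29 and 4.13 with PBS. On day 12 it measured 7.37, 4.40, 7.30, 10.62 and 10.03 in pregnant animals, against 11.17, 3.78, 10.40, 4.15 and 3.82 in cyclic animals. High and low animals thus occurred on each side of these comparisons. On day 15 the values were 3.96, 4.56 and 10.17 in pregnant animals, against 9.93, 10.13 and 4.46 in cyclic animals. On day 18 they were 11.11, 3.52, 10.95 and 3.81 in pregnant animals, against 3.49, 10.22, 10.14 and 10.15 in cyclic animals. No animal fell between 4.56 and 7.30, with 15 animals below that gap and 18 above it. The probe sets Bt.350.1.S1_at and Bt.350.1.S1_x_at were above their own gaps in the same 15 animals, all of which were also above the gap on Bt.4594.1.S1_at. Bt.7220.1.S1_at spanned 3.60 to 9.22 with a within-group SD of 1.72.

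DQA2, an alpha chain of DQ, followed DQB1 on its probe set Bt.4751.1.S1_a_at. It measured 4.56, 4.57 and 10.17 with IFNA, against 9.57, 4.47 and 9.04 with placebo and 4.85, 10.51 and 4.58 with PBS. The same animals were high and low as on Bt.4594.1.S1_at of DQB1. Over the 33 animals, 16 were above the gap in both, 15 below it in both and 2 above it only in DQB1. The 2 were the first and the third pregnant animals of day 12, which lay at 7.37 and 7.30 on the DQB1 probe set and at 5.81 and 5.65 on that of DQA2. The Pearson correlation of the pair was 0.98 after the mean of each array set was subtracted, over arrays that share the same tissue samples. A second DQA2 probe set, Bt.4751.2.S1_a_at, spanned 5.30 to 10.35 and correlated at 0.79 with the first.

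DQA5 and DQB formed another pair. DQA5 measured 3.41, 8.64 and 3.46 with IFNA, against 3.66, 3.51 and 3.78 with placebo and 8.06, 3.56 and 3.71 with PBS. DQB measured 4.63, 7.92 and 4.69 with IFNA, against 4.84, 4.78 and 4.92 with placebo and 7.02, 4.79 and 4.68 with PBS. The same IFNA animal and the same PBS animal stood out in both genes. Over all animals 9 were above the gap in both DQA5 and DQB and 24 below it in both, with none above it in only 1 of them. Only 2 animals were above the gap in both DQA5 and DQA2 (Bt.4751.1.S1_a_at), 7 in DQA5 alone, 14 in DQA2 alone and 10 in neither. The gaps were read from these same values, so the counts are a description. No genotypes were analysed here, and the part of allele differences or of probe mismatch in these patterns was not tested.

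**Figure D4:**
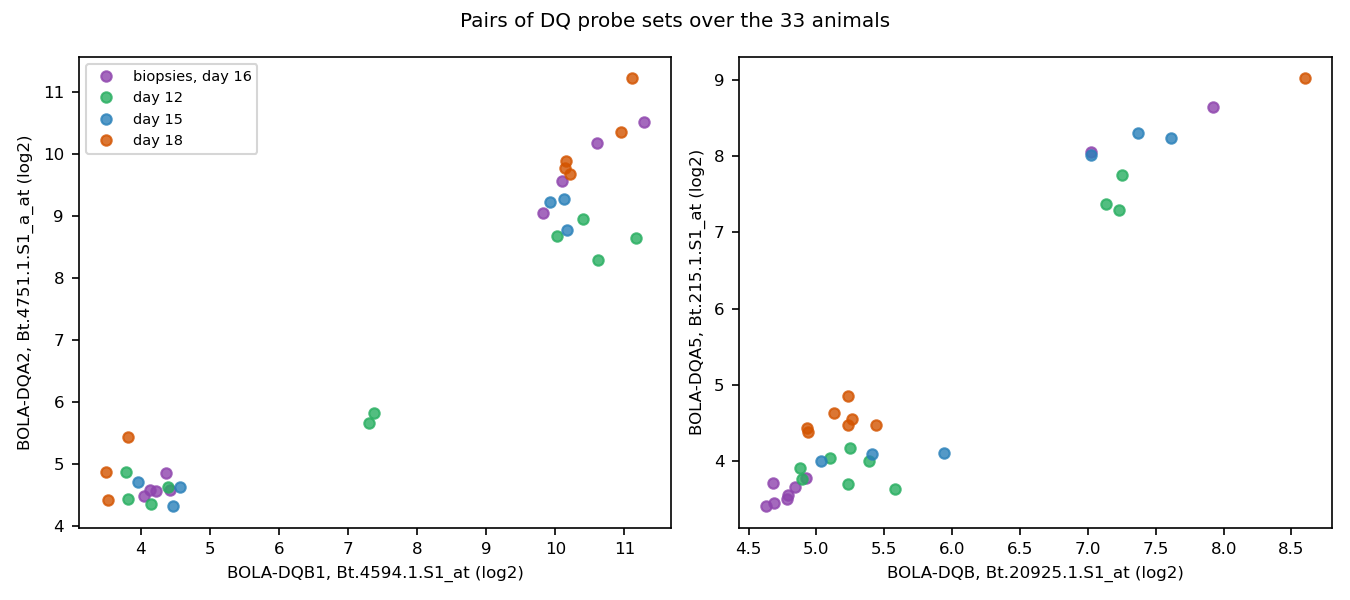
Log2 expression of BOLA-DQA2 against BOLA-DQB1 (left) and of BOLA-DQA5 against BOLA-DQB (right), with 1 point for each of the 33 animals coloured by array set. On the left 15 animals lie low and 16 high in both, with 2 day 12 animals between, and on the right 24 lie low and 9 high in both.

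DQA1, also an alpha chain, was less sharply divided. Its probe set of highest mean, Bt.22867.1.S1_x_at, measured 6.08, 8.21 and 7.79 with IFNA, against 7.29, 6.61 and 6.77 with placebo and 8.27, 7.49 and 6.72 with PBS. It spanned 4.67 to 9.23 over all animals and Bt.22867.1.S1_at spanned 4.86 to 8.82. The 2 probe sets gave overlapping groups in each of the biopsy comparisons.

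The 2 probe sets of DRB3 disagreed. Bt.28011.1.S1_at was at 6.86 or above in 30 animals and at 3.93 or below in 3. The 3 were the first IFNA animal (3.93), the third PBS animal (3.74) and the first cyclic animal of day 18 (3.40). On Bt.5356.1.S1_s_at, whose suffix marks probes shared between similar transcripts, the same animals measured 11.14, 11.00 and 10.61. These values lay within the 9.91 to 11.21 spanned over all groups. There the PBS animal was the highest of its group and the cyclic animal the lowest of its group. The first IFNA and the first cyclic day 18 animal were also among the 3 low animals of DQB1 on Bt.350.1.S1_s_at. On day 18 the difference on Bt.28011.1.S1_at was 1.85 ± 0.746 log2 (adjusted p = 0.0892), with 9.29, 9.01, 9.51 and 8.78 in pregnant animals, against 3.40, 7.93, 8.75 and 9.12 in cyclic animals. The cyclic mean there includes the animal at 3.40, and the groups overlapped.

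**Figure D5:**
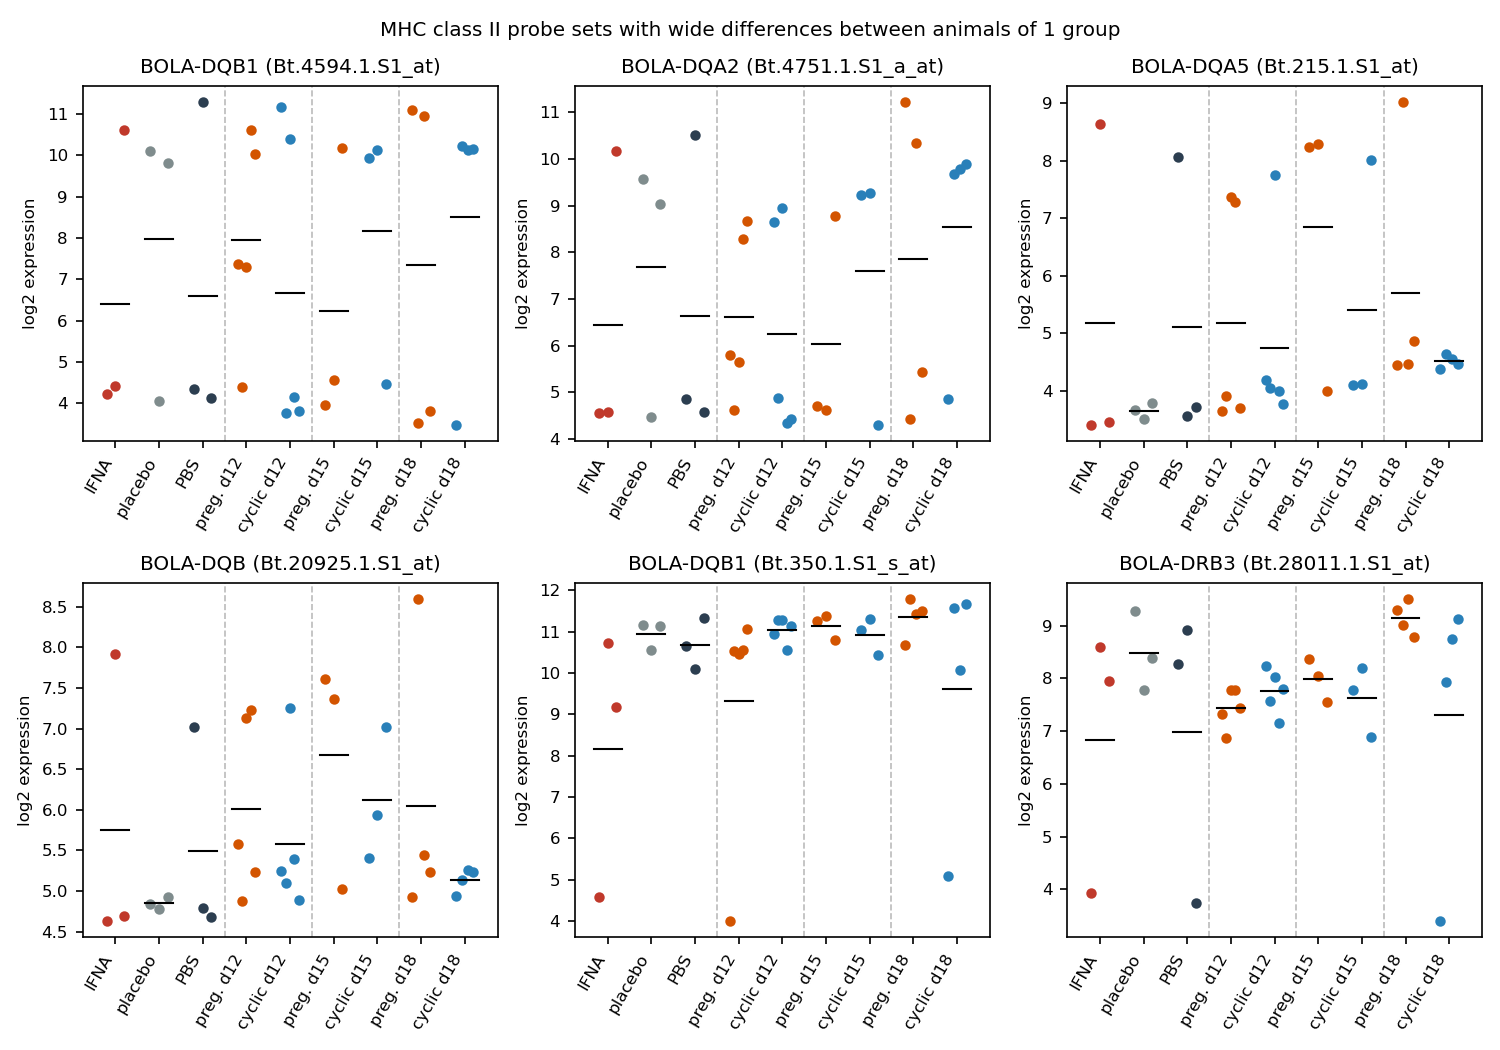
Log2 expression (y axis) of 6 probe sets of BOLA-DQB1, BOLA-DQA2, BOLA-DQA5, BOLA-DQB and BOLA-DRB3 in the 9 groups (x axis), with 1 point per animal and a black line at each group mean. Values separate into high and low animals within groups, and the group means often fall where no animal lies.

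Neither the DQ genes nor DY gave a call in any comparison. Among the 15 probe sets other than DMA, DMB, DOA, DRA and Bt.5356.1.S1_s_at, the lowest adjusted p was 0.606 for IFNA against placebo, 0.641 for IFNA against PBS and 0.999 for placebo against PBS. For pregnant against cyclic animals it was 0.850 on day 12, 0.489 on day 15 and 0.0892 on day 18. Their standard errors reached 2.51 log2 in the biopsies and 2.58 in the pregnancy experiment, so that at these group sizes differences of several log2 were not detectable for the most variable of them. DYA spanned 2.76 to 3.70 and DYB 2.64 to 3.79 over all animals, and Bt.4751.2.S1_at of DQA2 spanned 3.21 to 5.04. DYA and DYB lay near the lowest value of the table, where little change can be measured.

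Genes that act around class II were counted from lists. Of 21 promoter factors and inducers of class II, 14 were measured, and RFX5, a factor bound to the class II promoter, was the 1 that passed, beside 5.07% of all probe sets on day 15 and 19% on day 18. It was higher in pregnant animals by 0.39 ± 0.107 on day 15 (adjusted p = 0.0363) and by 0.83 ± 0.0924 on day 18 (adjusted p = 1.02e-06). With IFNA it differed from placebo by 0.61 ± 0.190 (adjusted p = 0.332), and 0 of the 14 passed in either IFNA comparison or on day 12. The list's median was 0.02 on day 15 and -0.04 on day 18, beside -0.01 and -0.03 for all probe sets. When a gene's probe sets were averaged, 3 of the list passed on day 18.

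Of 18 genes of peptide supply and traffic 16 were measured. Cathepsin S (CTSS), which trims the invariant chain, rose by 0.66 ± 0.102 with IFNA over placebo (adjusted p = 0.0204) and by 0.63 ± 0.102 over PBS (adjusted p = 0.0277), the only member called in each, beside 0.866% and 0.862% of all probe sets. In pregnancy 2 members rose on day 15, where 5.07% of all probe sets passed, CTSS by 0.39 ± 0.105 (adjusted p = 0.0334) and the lysosomal thiol reductase IFI30 by 0.57 ± 0.140 (adjusted p = 0.0196). On day 18, 7 rose and 2 fell, beside 19% of all probe sets called, 8.84% of all being higher. The largest rises were in LAMP3, a lysosomal membrane protein of mature dendritic cells (0.92 ± 0.216), CTSL (0.73 ± 0.217), CTSS (0.70 ± 0.0911) and CTSC (0.65 ± 0.149). The falls were in CTSF (-0.45 ± 0.106) and in MARCHF8 (-0.32 ± 0.105), a ubiquitin ligase that removes class II from the surface. The list's median was 0.15 on day 18.

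Among 16 measured of 19 genes of co-stimulation and T cell receptors, CD86, a co-stimulatory ligand of antigen-presenting cells, was the only one called, on day 18, where 19% of all probe sets passed (1.18 ± 0.109, adjusted p = 5.64e-08). Averaging a gene's probe sets gave 2 calls. With IFNA CD86 differed from placebo by 1.28 ± 0.301 (adjusted p = 0.144), and on days 12 and 15 no member of the list was called. The list's median on day 18 was 0.05, beside -0.03 for all probe sets.

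MHC class I presentation, the parallel pathway for peptides from the cytosol, had more members past the threshold than the lists above in pregnancy on days 15 and 18. With IFNA over placebo its count was the same as that of peptide supply and traffic. Of 13 measured genes 1 rose with IFNA over placebo and 2 over PBS, 0 on day 12, 6 on day 15 and 11 on day 18, with no falls. Of all probe sets 0.866%, 0.862%, 0.00416%, 5.07% and 19% passed in these comparisons. TAP1, a peptide transporter, rose by 1.53 ± 0.166 with IFNA over placebo (adjusted p = 0.00226), by 1.21 ± 0.165 in pregnancy on day 15 (adjusted p = 5.61e-05) and by 1.50 ± 0.143 on day 18 (adjusted p = 9.84e-08). The list's median was 0.52 for IFNA against placebo, -0.01 on day 12, 0.36 on day 15 and 0.55 on day 18. The difference between the class I and class II lists was not tested.

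Some markers from a list for macrophages and dendritic cells, which express class II, moved in the same comparisons. The dendritic cell markers FLT3, CLEC9A, XCR1 and CD1A have no probe set in the annotation. CD1B, which was measured, did not rise, at 3.24 to 3.54 with IFNA, 3.11 to 4.72 with placebo and 3.88 to 4.14 with PBS. Of 20 such markers 11 were measured, and 3 rose with IFNA over placebo, where 0.866% of all probe sets passed, with CD68, a general macrophage marker, at 6.65 to 6.83 with IFNA and 6.43 to 6.99 with placebo. The 3 were C1QB (1.84 ± 0.274), C1QC (1.58 ± 0.247) and the receptor CSF1R (1.12 ± 0.188). Against PBS 2 of the 11 rose, beside 0.862% of all probe sets called, while CD14 lay at 8.97 to 9.11 with IFNA and 8.87 to 9.15 with PBS. Summed levels were formed on the linear scale and follow the highest markers, here C1QA (10.05 to 10.66 with IFNA) and C1QB (9.46 to 10.18). The summed level of all 11 was 12.0 to 12.5 log2 with IFNA, against 10.7 to 11.4 with placebo and 11.2 to 11.5 with PBS. In pregnancy it was 11.0 to 11.4 in pregnant and 11.2 to 11.9 in cyclic animals on day 12. On day 15 it was 11.2 to 11.3 in pregnant and 10.7 to 11.2 in cyclic animals, and AIF1 was the 1 marker called, beside 5.07% of all probe sets. On day 18 it was 12.5 to 12.9 in pregnant and 11.4 to 11.7 in cyclic animals, with 7 markers higher and CD1B lower, beside 19% of all probe sets called. No marker of the list was at 0, a value that these log2 levels do not have.

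Markers of other cell types were also measured. The summed level of 6 measured B and plasma cell markers was 10.2 to 10.4 with IFNA, against 9.08 to 9.66 with placebo and 9.24 to 10.0 with PBS. On day 18 it was 10.4 to 12.2 in pregnant and 9.39 to 13.0 in cyclic animals, of which 1 had JCHAIN at 12.88. Of the 6, 1 was called with IFNA over placebo and 1 on day 18, beside 0.866% and 19% of all probe sets. Each time this was IGHM, the heavy chain of immunoglobulin M. It measured 8.46 to 8.92 with IFNA, against 6.63 to 7.80 with placebo (difference 1.60 ± 0.288, adjusted p = 0.0463). On day 18 it measured 9.25 to 10.12 in pregnant and 7.82 to 8.75 in cyclic animals (difference 1.29 ± 0.198, adjusted p = 8.51e-05). Summed T and NK cell markers (13 of 14 measured) were 10.2 to 10.3 with IFNA, against 9.63 to 10.3 with placebo. Of 10 endothelial markers, 5 were lower in pregnancy on day 18, 2 on day 15 and 2 with IFNA against PBS, beside 19%, 5.07% and 0.862% of all probe sets called. Their summed level was 11.8 to 12.4 with IFNA, against 12.2 to 12.6 with placebo and 12.7 to 12.9 with PBS. Summed stromal markers were 15.0 to 15.5 with IFNA, against 15.4 to 15.7 with placebo and 15.6 to 15.8 with PBS. Summed epithelial markers were 13.78 to 13.95 with IFNA, against 13.65 to 14.02 with placebo and 13.51 to 13.76 with PBS. IFNA and PBS animals did not overlap in any of these 3 sums. Of the 10 epithelial markers 3 were higher in pregnancy on day 15, and 3 were higher and 1 lower on day 18. Of the 10 stromal markers 1 was higher on day 15, and 1 was higher and 2 lower on day 18. Of all probe sets 5.07% were called on day 15 and 19% on day 18. The part of shifts in these cell types in the class II results was not tested.

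Genes were also ranked by the likeness of their pattern to single class II genes, as Pearson correlation over the 33 arrays after the mean of each array set was taken away. For DMB the 5 most alike were WARS1 (0.96), CTSS (0.95), LOC512672 (0.95), IFI35 (0.94) and FOXS1 (0.94). For DRA they were C1QA (0.87), LAT2 (0.82), C1QB (0.81), C1QC (0.80) and FERMT3 (0.79). For DMA they were C1QA (0.77), INTS4 (0.76), AIMP2 (0.70), CBLC (0.70) and SLCO2B1 (0.70). The ranks for DMB and DRA share no gene, while C1QA leads for both DRA and DMA. Among the class II genes themselves DRA correlated with DRB3 (Bt.5356.1.S1_s_at) at 0.92, with DMB at 0.76, with DOA at 0.74 and with DRB3 on Bt.28011.1.S1_at at 0.00. These values share arrays and group differences and carry no test.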

How the data were processed

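Endometrial RNA of 33 heifers was hybridised to Affymetrix bovine genome arrays. The authors deposited log2 expression values of probe sets, from RMA as run in affy (no versions given), per the submitters' processing notes. Sorted values matched within 4 sets of arrays (largest SD of a sorted value 0.0504 to 0.0669) and not over all 33 (0.334), so normalisation within sets is inferred from the values. Of 24128 probe sets, 112 controls were left out. Symbols came from the platform annotation, updated by gene identifier in RefSeq. Of the probe sets tested, 13292 had 1 symbol, 86 several and 10638 none.

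limma 3.58.1 in R 4.3.3 (lmFit, eBayes) was fitted without covariates to 9 biopsy, 24 pregnancy or all 33 arrays, with two-sided Benjamini-Hochberg adjusted p over 24016 probe sets and a threshold of 0.05. All class II probe sets are named. A gene is described first by its probe set of highest mean. List members named are those past the threshold, at most the 4 with the largest change, with the 2 largest changes allowed where none passed. The macrophage marker CD68 and the list members named without a call were chosen after their values were seen. The fit was run on simulated data of independent normal values. The DQ values split into high and low animals and vary together, so that run does not bear on them. Members and lists were chosen with earlier results of these data known. The number of arrays limits precision, and probe intensities were not analysed here. Alternatives were the arrays in the fit, quantile normalisation, array weights, a filter on dim probe sets, a replicate block and a variance trend. Further ones were the GAPDH difference between its ends as a covariate in the biopsies, pooled controls and leaving out each animal.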

Additional observations from a re-analysis of the deposited data

Results flagged for a closer look

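Single animals stood apart in 9 of 80 sets of values tested (groups of 4 or 5 animals, 1 probe set each). The rule flags about 1 in 20 by chance only for normal, independent values. The flagged DQ probe sets split into high and low animals and several vary together, so the count has no chance rate beside it. In the first cyclic animal of day 18, 4 probe sets were low: DQA2 Bt.4751.1.S1_a_at at 4.86, and DQB1 at 3.49 (Bt.4594.1.S1_at), 2.61 (Bt.350.1.S1_x_at) and 2.45 (Bt.350.1.S1_at). The third cyclic animal of day 12 was high in DQA5 (7.75) and DQB (7.25), as was the second pregnant animal of day 18 in DQA5 (9.02) and DQB (8.60). The first pregnant animal of day 12 was low in DQB1 on Bt.350.1.S1_s_at, at 4.00, where the others of its group measured 10.46 to 11.06.

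The pregnancy effect differed between days 18 and 12 by an interaction test in DMA (0.60), DMB (1.27), DOA (0.78) and DRA (0.61). The IFNA effect over placebo differed from the pregnancy effect of day 15 in DRB3 on Bt.5356.1.S1_s_at (0.96). The DRB3 call was lost in 9 of 12 fits that left 1 animal out. The DMA and DRA calls were lost in 2 and 3 of 18 such fits.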

How the results depend on the processing

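No class II difference past the threshold changed sign under the alternatives run. Of 55 differences of the graded genes, 7 that were not called and lay close to 0 changed sign when single animals were left out, and 3 of them also under another alternative. Among the 7 were DOA for placebo against PBS (-0.15 to 0.12), DRA on day 15 (-0.15 to 0.015) and DMB for IFNA minus day 18 (-0.11 to 0.16). Of the counts of class II probe sets past the threshold, leaving out animals apart, 62 stayed within 1.5 times and 9 moved. The same fit with pooled controls is among those that moved under IFNA against placebo and again under IFNA against PBS. Set against placebo and PBS pooled, IFNA gave 2 calls (DMB and DOA) in place of 1, and array weights gave 2 for IFNA against PBS and 2 for IFNA minus the day 15 pregnancy effect. With only the groups compared in the fit, 0 were called on day 15 and 0 for IFNA minus day 15 (DRB3 adjusted p = 0.220). With only probe sets above the median mean, 1 was called for the change from day 12 to 15 (DMB, adjusted p = 0.0479). Deviations of same-numbered animals from their group means correlated at -0.337 to 0.368 (6 of 21 pairs over 0.1). All pairs of day 12 (0.03 to 0.20) and day 15 (0.02 to 0.15) were weakly positive, and differently numbered pairs were not compared. The replicate block gave 0 calls for IFNA against PBS (DMB 1.02, adjusted p = 0.0611) and 0 for IFNA minus day 15 (DRB3 0.96, adjusted p = 0.0972), and changed no other call. Leaving out single animals gave 0 to 1 calls for IFNA against PBS, for day 15 and for the change from day 15 to 18, 0 to 2 for IFNA minus day 15, 3 to 4 on day 18 and 3 to 5 for the change from day 12 to 18. The causes were not tested. Groups of 3 to 5 animals and wide DQ spreads limit what could be called.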

Other observations

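A further probe set is annotated to both LOC100848815 and BOLA-DQA1 and was therefore kept apart from the 20 class II probe sets. It measured 11.20, 10.57 and 10.28 log2 in the IFNA animals, against 5.63, 9.44 and 5.26 with placebo and 9.76, 4.57 and 10.21 with PBS. All IFNA animals lay above all animals of both control groups, but the control animals themselves spanned more than the gap. Of all probe sets, 5.38% were higher without overlap against placebo and 6.09% against PBS. The difference from placebo was 3.91 ± 1.53 (limma adjusted p = 0.505). In pregnancy the probe set measured 3.86, 3.80 and 3.93 in pregnant animals of day 15, against 3.97, 4.11 and 6.88 in cyclic animals.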
